A study of Aspergillus nidulans with 12 samples.

Results

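The core histone genes of the filamentous fungus Aspergillus nidulans were described from the authors' mean level in RNA-Seq of kaeA mutants and their controls. They were chosen by gene ID, namely AN3468 (histone H2A), AN3469 (H2B), AN0733 (H3, hhtA), AN0734 (H4.1) and AN2761 (H4.2). Of these 5 IDs, 4 had a row in both deposited tables, out of 7729 genes listed in each, and AN0733 had a row in neither, so H3 is not analysed here. The row of each of the 4 genes held a p-value of the authors in both tables, so no listed core histone gene was without one. The authors' fold changes and p-values were not used.

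Core histones are the proteins that DNA is wound around in the nucleosome, where H2A pairs with H2B and H3 pairs with H4, and a nucleosome holds equal numbers of each. Their genes are known in eukaryotes for strong transcription while DNA is copied, when new nucleosomes are needed. The variant H2A.Z replaces H2A in some nucleosomes, often near the start of genes, and its incorporation does not need DNA replication. A. nidulans carries H4 in more than 1 gene.

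The strains compared were kaeA25 with its control wt5, and kaeA19 with its control wt4, at 3 libraries per strain and 12 in all. KaeA is a subunit of KEOPS, a complex that modifies tRNA. The kaeA25 strain carries proA6, adF9, yA2 and phenA2 beside its kaeA allele, and wt5 carries the same markers with kaeA+. The kaeA19 strain and wt4 carry proA6 and a pabaA and a biA allele, for which the sources differ: the labels give pabaA9 to both and number the kaeA19 biA allele from biA2 to biA4 by library against biA1 in wt4, while the study's methods give pabaA12 and biA1 to kaeA19 and pabaA9 and biA1 to wt4. All strains were grown as mycelium in liquid minimal medium, and the study describes both mutants as growing much more slowly than wild type. Each table gives 1 usable value per gene, the authors' mean of normalized fragment counts over 6 libraries, 3 of the mutant and 3 of its control. Mutant and control were therefore not compared, values per library and their spread are unknown, and every difference below is a description with no test and no replicate check.

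All 4 listed core histone genes were among the most abundant transcripts of both tables. H2B led, H4.1 and H2A followed at close levels, and H4.2 was lowest. As deposited, H2B (AN3469) had an authors' mean of 51027 normalized fragments in the kaeA25/wt5 libraries and 50586 in the kaeA19/wt4 libraries. H2A (AN3468), which is packed beside H2B, had 34163 in the kaeA25/wt5 libraries and 33674 in the kaeA19/wt4 libraries. H4.1 (AN0734) had 32261 in the kaeA25/wt5 libraries and 29950 in the kaeA19/wt4 libraries. The order of these genes was the same in both tables, with H4.2 (AN2761) last at 20895 in the kaeA25/wt5 libraries and 19124 in the kaeA19/wt4 libraries. Together the 4 genes took 0.629% of the summed means of the kaeA25/wt5 table and 0.598% of those of the kaeA19/wt4 table. Their median was 35.0 times the median of all genes above 0 in the kaeA25/wt5 table and 31.7 times in the kaeA19/wt4 table, on the scale of fragments.

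Since long genes collect more fragments, genes were compared with each other per kilobase of gene span. The span is that of the RefSeq annotation of assembly ASM1142v1 and includes introns. It is 984 bases for H2B, 912 for H2A, 836 for H4.1 and 1595 for H4.2. Per kilobase, H2B ranked 11 in both tables, among 7170 genes with a span and a mean above 0 in the kaeA25/wt5 table and 7088 in the kaeA19/wt4 table. H4.1 ranked 22 in the kaeA25/wt5 table and 26 in the kaeA19/wt4 table, and H2A ranked 23 in both, so H4.1 stood just above H2A in the kaeA25/wt5 table and 3 ranks below it in the kaeA19/wt4 table. H4.2 ranked 103 in the kaeA25/wt5 table and 136 in the kaeA19/wt4 table, which still placed it in the top 1.44% of genes in the kaeA25/wt5 table and the top 1.92% in the kaeA19/wt4 table. The median of the 4 genes per kilobase was 62.5 times that of all genes in the kaeA25/wt5 table and 56.3 times in the kaeA19/wt4 table.

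**Figure D1:**
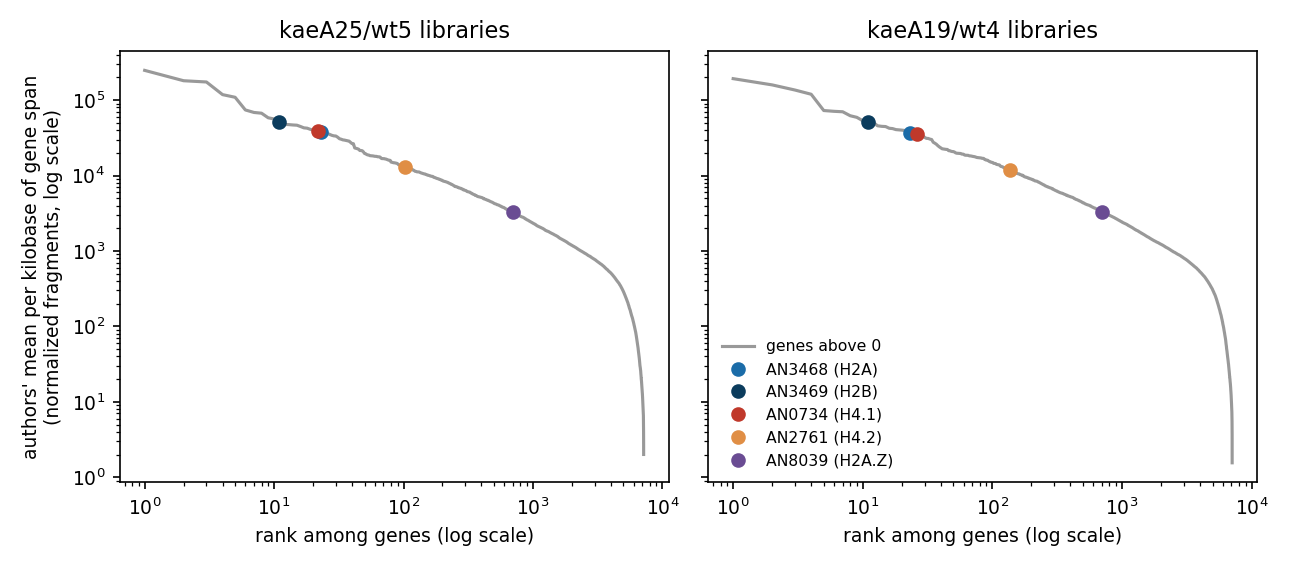
Level of the listed core histone genes and of H2A.Z on the curve of all genes. The vertical axis is the authors' mean of normalized fragments per kilobase of gene span and the horizontal axis the rank of a gene, both on log scales, for the kaeA25/wt5 libraries (left) and the kaeA19/wt4 libraries (right). The grey line holds every gene above 0 that has a span. H2B stands at rank 11 in both panels, and H4.2 at rank 103 (left) and 136 (right).

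The H4 genes encode the same kind of histone but differed in level. H4.1 gave 60.7% of the fragments of both H4 genes in the kaeA25/wt5 table and 61.0% in the kaeA19/wt4 table. Per kilobase of span its share was 74.7% in the kaeA25/wt5 table and 74.9% in the kaeA19/wt4 table. The ratio of H4.1 to H4.2 in fragments was 1.54 in the kaeA25/wt5 table and 1.57 in the kaeA19/wt4 table. Per kilobase it was 2.95 in the kaeA25/wt5 table and 2.99 in the kaeA19/wt4 table. The ratio moved with the length correction and much less between the tables. The correction rests on RefSeq spans with introns, 836 bases for H4.1 and 1595 for H4.2. Transcript lengths were not used, so the ratio per kilobase is uncertain. The sources used here do not give how fragments that match both H4 genes were counted, and the split between them is uncertain.

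The H2A and H2B genes, whose products form a dimer, lie next to each other in the RefSeq gene order, as do H4.1 and the H3 gene hhtA, while neither neighbour of H4.2 is a core histone gene. The level of H2A was 0.72 of that of H2B per kilobase in both tables, a log2 difference of -0.47 in the kaeA25/wt5 table and -0.48 in the kaeA19/wt4 table. Without the length correction their levels differed by 0.58 on the log2 scale in the kaeA25/wt5 table and 0.59 in the kaeA19/wt4 table. Over 5403 pairs of adjacent genes above 0 in both tables, the median of this uncorrected difference was 1.76 in the kaeA25/wt5 table and 1.75 in the kaeA19/wt4 table. Pairs closer together than H2A and H2B made up 18.3% in the kaeA25/wt5 table and 18.5% in the kaeA19/wt4 table. These pairs are of any abundance. No share was computed for pairs of like abundance or for pairs that are not adjacent, so an effect of adjacency was not tested. H4.1, no neighbour of H2A, was nearer to it without the correction, at a log2 ratio to H2A of -0.08 (kaeA25/wt5) and -0.17 (kaeA19/wt4). H4.2, also no neighbour, was farther from H2A than H2B was. Adding H4.2 to H4.1 brought H4 nearer to H2B and took it farther from H2A. H4.1 alone stood at 0.744 times H2B per kilobase in the kaeA25/wt5 table and 0.697 times in the kaeA19/wt4 table, and at 1.03 times H2A in the kaeA25/wt5 table and 0.970 times in the kaeA19/wt4 table. Summed H4 stood at 0.997 times H2B per kilobase in the kaeA25/wt5 table and 0.930 times in the kaeA19/wt4 table. Against H2A, summed H4 stood at 1.38 times in the kaeA25/wt5 table and 1.29 times in the kaeA19/wt4 table. The balance between H3 and H4 is not analysed here.

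**Figure D2:**
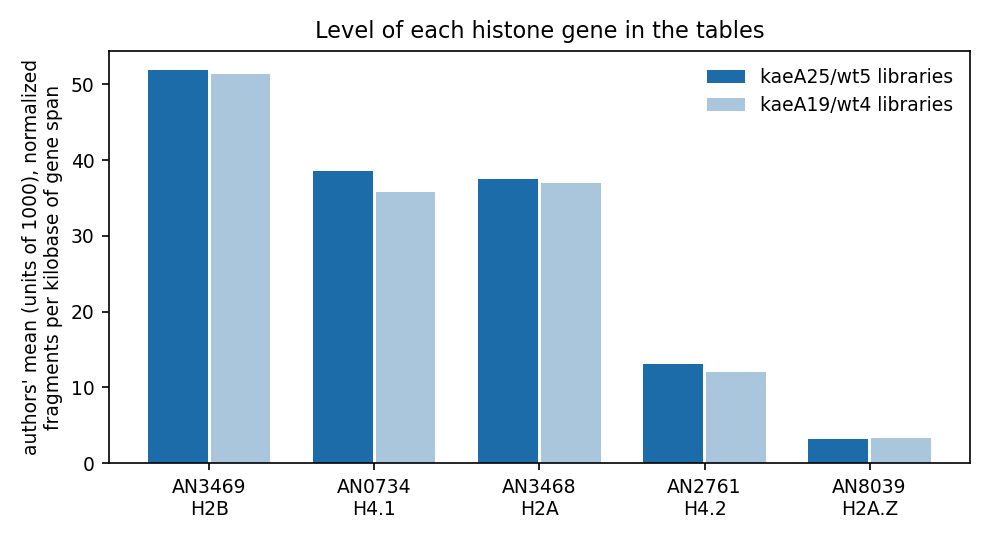
Levels of the 4 listed core histone genes and of the variant H2A.Z. Bars give the authors' mean, in normalized fragments per kilobase of gene span on an axis in units of 1000, over the 6 kaeA25/wt5 libraries (dark) and the 6 kaeA19/wt4 libraries (light), with no error bars because no value per library was used. H2B is highest and H4.2 the lowest of the core histones, with a bar per table that differs little, and H2A.Z lies far below all of them.

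The variant H2A.Z (AN8039, symbol htz1 in RefSeq) is set beside H2A because it takes the place of H2A in the nucleosome. It had an authors' mean of 4584 normalized fragments in the kaeA25/wt5 libraries and 4669 in the kaeA19/wt4 libraries. Per kilobase of span this was 0.087 of the H2A level in the kaeA25/wt5 table and 0.089 in the kaeA19/wt4 table. Without the length correction the ratio was 0.134 in the kaeA25/wt5 table and 0.139 in the kaeA19/wt4 table. H2A.Z ranked 704 per kilobase in the kaeA25/wt5 table and 706 in the kaeA19/wt4 table, below every listed core histone gene.

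Between the tables, the core histone genes kept nearly the same pooled level. With each mean taken as a percent of its table's total, H2A had 0.155% in the kaeA25/wt5 libraries and 0.151% in the kaeA19/wt4 libraries, a log2 difference of 0.04. H2B had 0.232% in the kaeA25/wt5 libraries and 0.227% in the kaeA19/wt4 libraries, a difference of 0.03. The H2A and H2B genes therefore stood closest to equality between the tables among the core histones. H4.1 had 0.147% in the kaeA25/wt5 libraries and 0.134% in the kaeA19/wt4 libraries, a difference of 0.13. For H4.2 the shares were 0.0950% in the kaeA25/wt5 libraries and 0.0857% in the kaeA19/wt4 libraries, a difference of 0.15. Leaving out the sign, 33.1% of genes above 0 in both tables differed less than H4.1 and 37.6% less than H4.2. For H2A and H2B these values were 11.1% and 9.30%. All 4 differences were above 0 and had a median of 0.08, against a median of -0.02 and quartiles of -0.24 and 0.19 over the 7283 genes above 0 in both tables, of which 46.9% had a difference above 0. The 117 genes at least as abundant as H4.2 in both tables, core histones included, had a median of 0.04 and quartiles of -0.18 and 0.25. This set has no upper limit of abundance. Its median is the value of H2A itself, and its quartiles lay on both sides of 0. None of the 4 genes passed a 2-fold difference, which 9.02% of all genes passed, 4.22% higher and 4.81% lower in the kaeA25/wt5 libraries. Among the 117 abundant genes 3 passed it, or 2.56%.

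H2A and H2B were most alike in their difference between the tables among the 6 pairs of core histone genes, followed by the H4 genes. The differences between the tables of H2A and H2B were 0.0083 apart on the log2 scale, and 1.54% of adjacent gene pairs were closer. These adjacent pairs are of any abundance. The share among pairs of like abundance or pairs that are not adjacent was not computed, so this value cannot show an effect of adjacency. The differences of H4.1 and H4.2, which are not neighbours, were apart by -0.02 (H4.1 minus H4.2). This gap is uncertain, because how fragments matching both H4 genes were counted is unknown. Between H2A or H2B and an H4 gene the gap ran from -0.09 for H2A minus H4.1 and H2B minus H4.1 to -0.12 for H2B minus H4.2. These gaps rest on 1 pooled value per gene and table, and whether they exceed the spread between libraries is unknown.

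A fixed list of cytoskeleton and housekeeping genes, which are also used by all growing cells, was set beside the core histones. This list was chosen with earlier results of these data known, so the contrast is no independent check. Apart from gpdA, it holds only actin and tubulin genes. All 6 of its genes stood below 0 and all 4 core histone genes above 0, also under each other scaling tried. Since each scaling shifts all genes alike, the gap between the lists could not change with it. Of the 7283 genes above 0 in both tables, 46.9% had a difference above 0. Actin (AN6542) had 0.221% of the total in the kaeA25/wt5 libraries and 0.278% in the kaeA19/wt4 libraries, a log2 difference of -0.33. The list ran from -0.75 for the beta-tubulin gene tubC (AN6838) to -0.10 for the glyceraldehyde-3-phosphate dehydrogenase gene gpdA (AN8041), with a median of -0.35. Only gpdA lay inside the quartiles of all genes, -0.24 and 0.19, so the lower level was that of actin and tubulin genes. H2A.Z stood at -0.01, which turned to 0.02 when the median of all genes was set to 0 and with the 10 largest genes left out of the total. The tables differ in the strains' marker mutations, the kaeA allele and any difference of growth or handling between them, and these cannot be told apart.

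**Figure D3:**
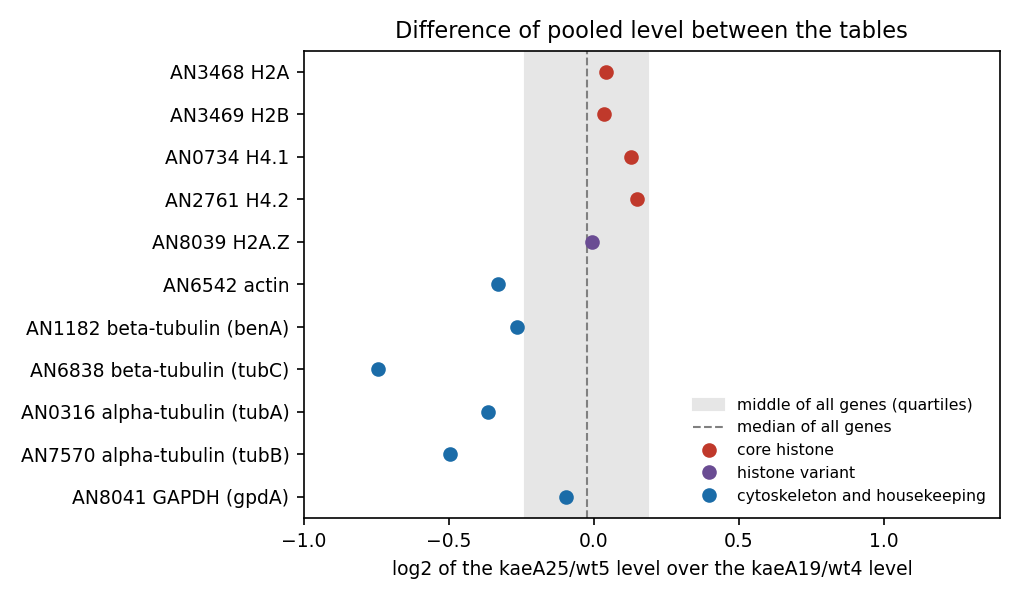
Difference of pooled level between the tables. Points give the log2 of the kaeA25/wt5 level over the kaeA19/wt4 level, each as a share of its table's total, for the core histone genes, H2A.Z and the cytoskeleton and housekeeping genes; the grey band spans the quartiles of all 7283 genes and the dashed line their median. The core histone genes lie between 0.03 and 0.15, inside the band, and 5 of the other list's 6 genes lie left of it.

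The genes nearest to the core histones in both pooled levels are given as a description over 2 tables only. By distance between log2 shares of the total they were AN2875 for H2A (0.05), AN6010 for H2B (0.18), AN4523 (prp8 in RefSeq) for H4.1 (0.06) and AN3307 (ags1 in RefSeq) for H4.2 (0.0039). H2B had no gene as near to it as the other core histones had.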

How the data were processed

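RNA-Seq libraries were made from RNA depleted of rRNA, with paired-end reads. The study's methods describe alignment by TopHat 2 with Bowtie2 against the FGSC A4 genome of AspGD, a filter on the orientation of read pairs and fragment counting over annotated loci with ShortRead. Whether counting used the strand is unknown, so counts of overlapping or antisense genes are uncertain. The 2 deposited tables hold per gene the authors' mean, a signal in normalized fragment counts over 6 libraries, and 5 columns of the authors' comparison of mutant and control (log2 fold change, its standard error, a statistic, the p-value before and after adjustment). These 5 columns are not used. They have the names of a DESeq2 table, per the file headers, while the authors name edgeR.

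The planned edgeR test of mutant against control was not run, because no counts per library were used. The depth of each library is unknown. The means summed to 21992800 in the kaeA25/wt5 table and 22310300 in the kaeA19/wt4 table, and 181 and 265 genes were listed at 0. Here, means were expressed as a percent of the table's total, ranked among genes above 0 and divided by RefSeq gene span, for which 7332 of 7729 IDs matched. Calculations used Python 3.11.15, numpy 2.4.6, pandas 2.3.3 and matplotlib 3.10.9, and the ratio step was tested on simulated data. Named genes were the core histones, H2A.Z, 6 genes of a fixed list and the nearest gene to each core histone. H2A.Z was found by its RefSeq symbol, since the reference holds no product names, so that the planned lists by product name, coding lengths and promoter motifs were not run. The members and lists were chosen with earlier results of these data known.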

Additional observations from a re-analysis of the deposited data

How the results depend on the processing

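No spread between libraries was available, so a value counted as moved past a 1.5-fold change, applied to the fold for log2 differences. Of 66 values under other settings 47 did not move and 19 did. Other scalings (1 factor per table) and ranks among genes above 0 in both tables could hardly move a value. The count of 47 thus shows no robustness. The length correction by gene span, chosen after seeing the data, moved most of the 19. It left H4.2, H2A over H2B and summed H4 unmoved. In the kaeA25/wt5 and the kaeA19/wt4 table, the percent of all levels per kilobase was 0.324% and 0.315% for H2A, 0.449% and 0.438% for H2B, and 0.334% and 0.305% for H4.1. In the same order, ranks were 23 and 23 for H2A, 11 and 11 for H2B and 22 and 26 for H4.1, against 61 and 60, 37 and 36, and 65 and 80 without it. H4.1 over H4.2 became 2.95 and 2.99. H2A.Z over H2A, not among the 66 values, became 0.087 and 0.089 from 0.134 and 0.139. In the same order, with H4 from AN0734 alone, H4 over H2A was 0.944 and 0.889, against 1.56 and 1.46 with both genes. H4 over H2B was 0.632 and 0.592, against 1.04 and 0.970. The count of genes past a 2-fold difference was 657, and 316 of the 6438 genes with a mean of at least 100 in both tables. With scaling by the median of ratios, no scaling or a total without the 10 largest genes, the log2 differences between the tables stayed above 0 and under 2-fold for all 4 core histone genes. They ran from 0.02 to 0.07 for H2A, 0.01 to 0.06 for H2B, 0.11 to 0.15 for H4.1 and 0.13 to 0.18 for H4.2, so the small values of H2A and H2B depend on the scaling. The alternatives by coding length were not run. No replicate could be left out. No paired analysis was possible because the deposited columns used carry no replicate and no value per library.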
